A study of Mus musculus with 8 samples.

Results

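Replication-dependent histone genes encode the histones H1, H2A, H2B, H3 and H4 that package newly made DNA. They were followed here in bone of mice with and without Girk3. The members were all protein-coding genes of the GENCODE M21 mouse annotation whose symbol begins with Hist1h, Hist2h, Hist3h or Hist4h. Of 67 such genes, 65 stood in the deposited count table of 49315 gene IDs, and Hist1h2bm and Hist1h2bh were not analysed here. The 65 comprised 6 genes of linker histone H1, 18 of H2A, 16 of H2B, 12 of H3 and 13 of H4. The Hist1 cluster on chromosome 13 held 52 of them, the Hist2 cluster on chromosome 3 held 10, the Hist3 cluster on chromosome 11 held 2, and Hist4h4 on chromosome 6 stood alone.

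Bulk RNA sequencing was done on the femur shafts of 8 male C57BL6 mice aged 24 weeks, 4 wild-type (WT) and 4 Girk3-/- (KO). Girk3, gene symbol Kcnj9, encodes a subunit of a G protein-gated potassium channel. The series' title presents the deletion as one that affects bone formation in adult males, and the comparison of KO with WT addresses it at the level of RNA. Marrow had been flushed from the shafts with saline. The sources used here do not say how the deletion was made or in which tissues it is present.

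Most histone genes of these clusters are switched on as a cell copies its DNA and are silenced afterwards. Their mRNAs have no introns and, unlike other mRNAs, usually no poly(A) tail. They end just after a short stem-loop that the stem-loop binding protein SLBP recognises, and they are degraded when DNA synthesis stops. Some members also have a poly(A) site downstream and give polyadenylated transcripts in cells that have left the cycle. In bone and marrow, dividing cells are mostly blood cell precursors and osteoprogenitors, whereas osteocytes do not divide. Library preparation by poly(A) selection or by removal of ribosomal RNA is not specified in the sources used here.

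The stem-loop was searched for in the annotated transcripts because it separates these genes from nearly all others. The 16-base consensus of the histone stem-loop, which begins GG and ends CC, was found in 44 of the 65 members (67.7%) and in 68 of 21866 protein-coding genes (0.311%). The members made up 64.7% of the genes that held it. The 26 bases shown run 5′ to 3′ in the mRNA sense, written as DNA from GENCODE M21 transcripts, with the stem-loop in capitals.
Hist1h1c: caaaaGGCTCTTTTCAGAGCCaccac
Hist3h2a: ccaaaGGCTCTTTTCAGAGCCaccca
Hist3h2ba: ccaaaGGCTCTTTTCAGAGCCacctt
Hist1h3g: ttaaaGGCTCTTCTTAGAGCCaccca
Hist1h4h: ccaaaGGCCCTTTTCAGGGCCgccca
Hist1h4i: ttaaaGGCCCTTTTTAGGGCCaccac
Hist1h4b: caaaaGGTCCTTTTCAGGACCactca
These 7 were chosen to show the forms that differ between histone types among the genes described below, with Hist1h4b added for the form of the stem that 2 H4 genes carry. The stem-loops of Hist1h1c and Hist1h4h lie at chr13:23739512-23739527 and chr13:23531458-23531473 on the plus strand, and that of Hist1h4i at chr13:22040966-22040981 on the minus strand (GRCm38). Those of Hist3h2a and Hist3h2ba lie at chr11:58955172-58955187 and chr11:58949349-58949364, both on the plus strand.

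The form of Hist1h1c was shared by 24 members of types H1, H2A, H2B and H3. The form of Hist1h4h was carried by 7 members, all of type H4, and that of Hist1h4i by 2, Hist1h4i and Hist2h4. A further 6 members of types H1, H2B and H3 carried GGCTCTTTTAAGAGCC. The annotated transcripts of the other 21 members, among them Hist1h2bc and Hist2h2be, did not hold these letters. Some of them are annotated as short transcripts, such as Hist1h4k (312 bases), Hist1h2bl (381) and Hist1h3h (411). A stem-loop beyond the annotated end was not searched for, so these genes may still have one.

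The end of the annotated transcript set some abundant members apart. A poly(A) signal (AATAAA or ATTAAA) lay within the last 50 bases of 17 members (26.2%), against 78.0% of protein-coding genes. In Hist1h1c the annotated transcript ran on for 840 bases after the stem-loop, in Hist3h2a for 1643, in Hist1h4i for 330, in Hist3h2ba for 169 and in Hist1h4h for 46. Of the 7 members with a mean of at least 5 CPM (counts relative to library size, scaled with TMM factors), 6 ended in a poly(A) signal. The exception was Hist1h2bc, whose annotated transcripts had no such signal at the end. Over all members the order was the other way: the median level was 0.469 CPM per kb of exon in the 17 members with the signal and 0.796 in the 48 without it.

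Levels per exon length spanned a wide range. Averaged over 8 libraries, Hist1h1c, which encodes the linker histone H1.2, stood highest at 110 CPM per kb. Hist1h2bc (H2B) followed at 45.1, Hist1h4i (H4) at 36.9 and Hist1h4h (H4) at 23.1. A gap separated these 4 genes from Hist3h2a at 5.17, Hist2h2be at 4.96, Hist3h2ba at 3.57 and Hist2h3c2, the highest H3 gene, at 2.53 CPM per kb. The lowest member with any count was Hist1h2bq at 0.00195 CPM per kb. Altogether 17 of the 65 members reached a mean of 1 CPM, and the members took between 0.0261% and 0.0425% of a library's counts.

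**Figure D1:**
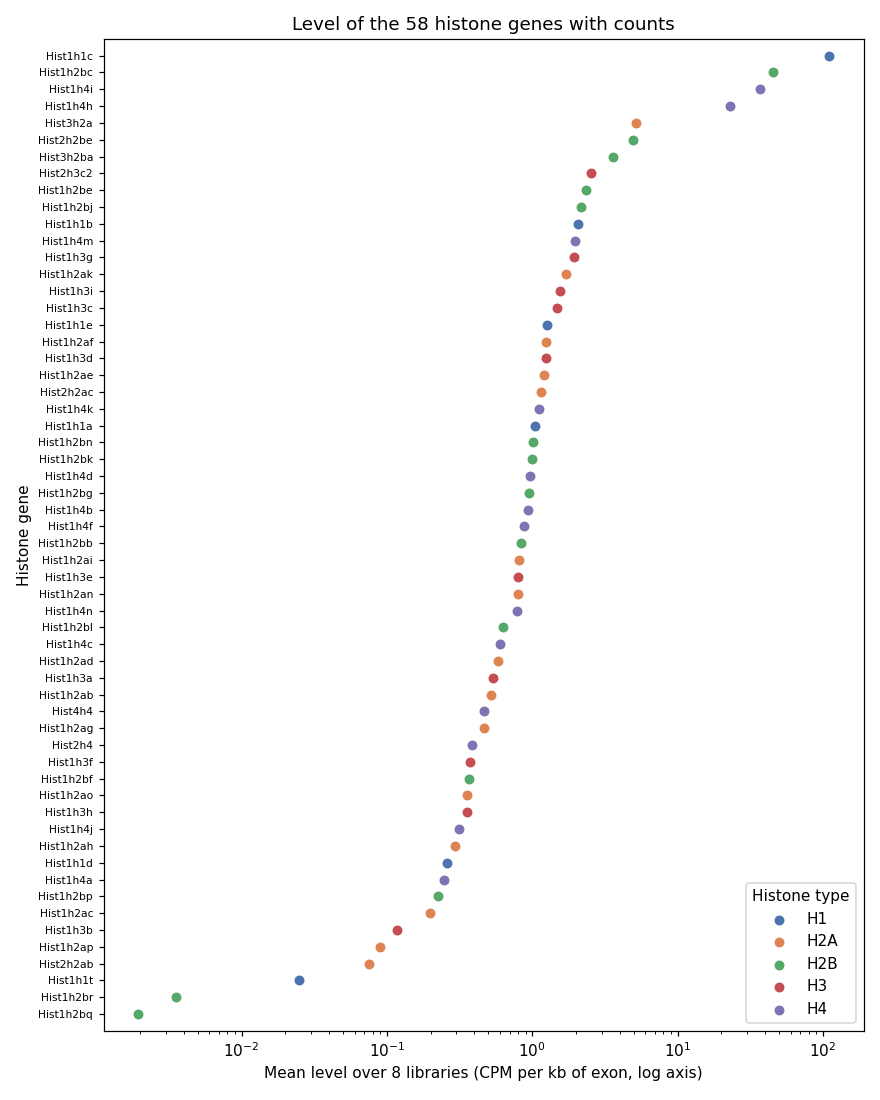
Mean level of each of the 58 histone genes with counts, in CPM per kb of exon on a log axis, coloured by histone type and sorted by level. Hist1h1c, Hist1h2bc, Hist1h4i and Hist1h4h lie between 23.1 and 110, and the next gene, Hist3h2a, is at 5.17.

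Within a type, the counts came largely from 1 gene. Hist1h1c gave 92.1% to 97.6% of the H1 counts of a library. Hist3h2a gave 50.6% to 77.4% of the H2A counts, Hist1h2bc 53.8% to 75.0% of the H2B counts and Hist1h4i 56.1% to 67.9% of the H4 counts. Type H3 was more even, with 18.2% to 39.8% from Hist2h3c2. In H1, H2A, H2B and H3 the lowest of these shares was that of WT replicate 4.

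Histone genes resemble each other, and some overlap other annotated genes, which bears on how reads were assigned. Of the 65 members, 59 shared at least 1 stretch of 100 bases with the transcripts of another gene, where an overlapping gene at the same place counts as another gene, and 54 shared one with another member. In 5 members, Hist2h2aa1, Hist2h2aa2, Hist2h2bb, Hist2h3b and Hist2h3c1, every 100-base stretch was shared in this sense, and all 5 had 0 counts in all 8 libraries. Each of the 5 overlaps exons of another annotated gene at its own locus, and Hist2h2bb shared no stretch with another member. The rest of the 5 also shared stretches with other members, so for them copies elsewhere and overlap cannot be told apart. Of the 24 members that overlap another gene, 18 had counts. Members with under 50% of their stretches shared had a median of 0.972 CPM per kb (37 genes), and those with 50% or more had 0.495 (28 genes). The sources used here do not say how reads in several places or in overlapping genes were counted, so the levels of these genes are uncertain.

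Only 2 other members had no count, Hist1h2aa and Hist1h2ba, H2A and H2B genes known from testis. A count of 0 over all 8 libraries allows a mean of up to 0.0114 CPM at the limit of 3 counts, counting error only. Hist1h1t, the testis H1 gene, had 6 counts in all.

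**Figure D2:**
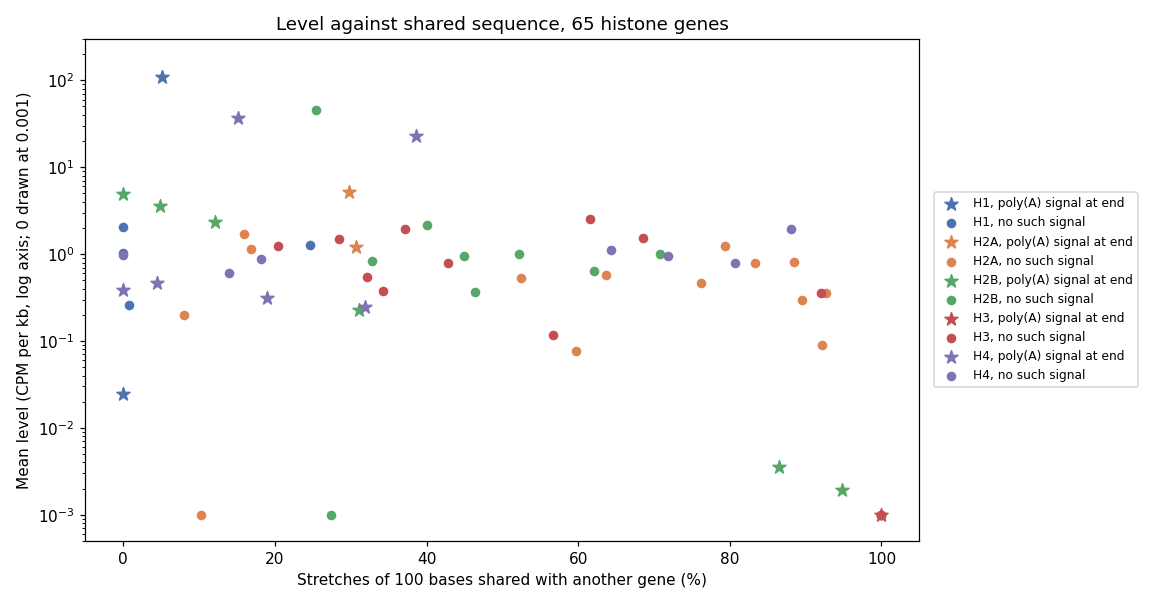
Mean level of the 65 histone genes in CPM per kb (log axis, 0 drawn at 0.001) against the share of each gene's 100-base stretches found in the transcripts of another gene, overlapping genes included, in percent. Stars mark transcripts that end in a poly(A) signal; the 5 genes at 100% coincide at 0.

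H2A and H2B genes often lie head to head, transcribed away from each other from a common promoter region. There were 12 such pairs among the members, with 175 to 305 bases between the start sites. The partners were not at equal levels. Hist1h2bc stood at 45.1 CPM per kb and its neighbour Hist1h2ac at 0.197, a ratio of 229 over 13513 and 132 counts. Hist2h2be stood at 4.96 and its neighbour Hist2h2ac at 1.16, a ratio of 4.29. In the other 7 pairs with at least 4 counts in each gene the ratio of H2B to H2A lay between 0.282 and 4.67.

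The region shared by each of the first 2 pairs is shown because 1 window holds the start region of both genes. Each is the RefSeq promoter window of the H2A gene on GRCm38.p6, 250 bases before and 50 after its start, read 5′ to 3′ on the minus strand, so the H2B gene starts inside the left end of the window and runs out of it to the left. The first is chr13:23683910-23684209 and the second chr3:96220831-96221130. Capitals mark matches on either strand to the TATA box letters TATAAA, the CCAAT box letters CCAAT and the letters ATTTGCAT of the octamer bound by Oct-1.
Hist1h2ac: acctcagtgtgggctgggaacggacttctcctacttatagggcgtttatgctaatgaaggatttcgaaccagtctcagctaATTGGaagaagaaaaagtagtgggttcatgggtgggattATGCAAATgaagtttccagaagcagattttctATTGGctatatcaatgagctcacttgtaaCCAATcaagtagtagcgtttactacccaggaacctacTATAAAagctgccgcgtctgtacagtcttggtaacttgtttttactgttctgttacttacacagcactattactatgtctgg
Hist2h2ac: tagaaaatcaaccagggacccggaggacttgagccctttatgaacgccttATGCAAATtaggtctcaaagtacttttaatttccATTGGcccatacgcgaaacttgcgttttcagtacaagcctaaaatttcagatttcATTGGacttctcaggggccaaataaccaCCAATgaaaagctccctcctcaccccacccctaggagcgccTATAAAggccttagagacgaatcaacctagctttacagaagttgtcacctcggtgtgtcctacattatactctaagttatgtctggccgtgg
Both windows held all 3 sets of letters.

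Across the 59 members with a RefSeq window, matches differed by histone type. TATAAA stood in 59.3% of the members' windows and in 15.7% of 27025 genes. CCAAT stood in 84.7% against 41.1%: it was in every window of H1 (6), H2A (17), H2B (14) and H3 (10) genes, and in 25.0% of the 12 H4 windows. ATTTGCAT stood in 22.0% against 1.97%, in 41.2% of H2A and 42.9% of H2B windows and in no window of the other types. The motifs were searched on both strands, matches of different motifs were allowed to overlap, and a match is a description of the sequence only.

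Before genotypes are compared, 2 facts about the libraries bear on the histone values. Kcnj9, the targeted gene, had 7, 6, 6 and 23 counts in WT and 0, 8, 4 and 7 in KO, too few for a check of the labels, and the part deleted is not given. WT replicate 4 and KO replicate 4 stood at opposite ends of the first principal component (33.5% of the variance). Library totals were 30087749 to 36553713 counts. In bulk tissue, fewer cells of a type and less RNA per cell cannot be told apart.

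Of the 65 members, 38 passed the low-count filter and 27 did not. Of the 27, 7 had no count and 20 had few, at most 35 counts in 1 library. By edgeR's quasi-likelihood test, adjusted over 17450 genes, none of the 38 was called, against 0.0115% (2) of all genes. The lowest adjusted p among the members was 0.102. At an unadjusted p under 0.05, 6 members were higher in KO (background 9.59%) and 1 was lower (background 8.59%). DESeq2 called 2, Hist1h1c and Hist1h4h, among the 21 members to which it gave an adjusted p (background 6.48%), and limma-voom called Hist1h1c (background 4.04%). The fold changes were positive in 21 members and negative in 17, with a median log2 fold change of 0.09 against -0.01 for all genes tested.

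**Figure D3:**
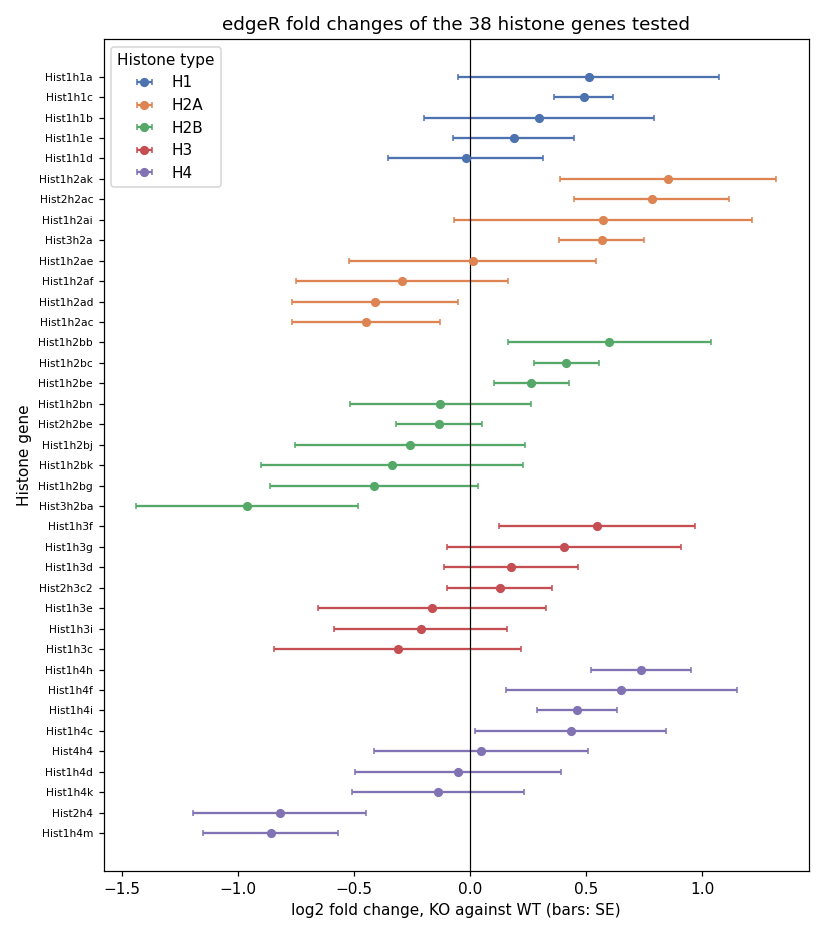
Log2 fold change of KO against WT from edgeR for the 38 histone genes tested, grouped and coloured by histone type. Bars are standard errors derived from the test statistic. The values run from -0.96 for Hist3h2ba to 0.85 for Hist1h2ak, and Hist1h1c, at 0.49, has the narrowest bar.

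Linker histone H1 binds the DNA between nucleosomes. Hist1h1c stood at 140, 155, 146 and 131 CPM in WT and at 214, 181, 224 and 183 CPM in KO. Every KO library was above every WT library. The means were 143 ± 10.2 and 201 ± 21.8 CPM (SD, n = 4 each), a difference of 0.49 on the log2 scale (SE 0.127). The adjusted p was 0.102 in edgeR, 0.00554 in DESeq2 and 0.0416 in limma-voom. With library totals in place of TMM factors, KO replicate 4 fell below WT replicate 2 and WT replicate 4, so the groups overlapped. The log2 fold change was then 0.40 (edgeR adjusted p 0.219). Hist1h1c (ENSMUSG00000036181) spans chr13:23738808-23740367 on the plus strand and has 1 exon.

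Hist1h1b, which encodes H1.5, a form of dividing cells, stood at 0.792, 0.641, 0.844 and 3.21 CPM in WT and at 1.67, 2.12, 1.16 and 1.90 CPM in KO. WT replicates 1, 2 and 3 lay below all KO libraries, and WT replicate 4 lay above them all. The log2 fold change was 0.30 (SE 0.497, edgeR adjusted p 0.806), and 1.17 without WT replicate 4 (edgeR adjusted p 0.120). Among the 5 H1 genes tested, 4 were positive and 1 negative, with a median of 0.30.

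Type H2A had 8 tested genes, 5 positive and 3 negative, with a median log2 fold change of 0.29 and a range of -0.45 to 0.85. Hist3h2a (chr11:58954685-58956830, plus strand) stood at 8.16, 8.40, 10.4 and 8.87 CPM in WT and at 18.3, 12.2, 12.1 and 10.3 CPM in KO. The groups overlapped only where KO replicate 4 met WT replicate 3, and KO replicate 1 was the highest. The log2 fold change was 0.57 (SE 0.185, edgeR adjusted p 0.157). This gene overlaps an exon of Trim17 on the same strand, and reads of the overlap cannot be told apart. All 18 H2A genes overlap exons of another annotated gene.

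Hist1h2ak, the H2A gene with the second highest level per kb, stood at 0.381, 0.153, 0.506 and 0.860 CPM in WT and at 0.675, 1.32, 0.659 and 0.834 CPM in KO. WT replicate 4 lay among the KO libraries. The log2 fold change was 0.85 with an SE of 0.466 (edgeR adjusted p 0.367). Hist2h2ac, the remaining gene of the 6 higher in KO at an unadjusted p under 0.05, named after its value was seen, differed by 0.78 on the log2 scale (SE 0.334, edgeR adjusted p 0.253).

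In H2B, 3 genes were positive and 6 negative, with a median of -0.13. Hist1h2bc (chr13:23684199-23692908, plus strand, 2 exon blocks) stood at 44.1, 45.0, 46.3 and 43.2 CPM in WT and at 76.9, 49.4, 51.9 and 59.9 CPM in KO. All KO libraries were above all WT libraries, and the KO libraries were spread more widely. The log2 fold change was 0.41 (SE 0.142, edgeR adjusted p 0.170). With library totals it was 0.32 (edgeR adjusted p 0.354), and KO replicate 4 fell below WT replicate 4.

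The next H2B gene, Hist2h2be, known for polyadenylated transcripts in non-dividing cells, stood at 11.3, 12.6, 13.6 and 16.9 CPM in WT and at 11.4, 16.5, 9.76 and 11.9 CPM in KO. The groups overlapped almost fully, with a difference of -0.13 on the log2 scale (SE 0.187, edgeR adjusted p 0.757). Hist3h2ba had the most negative value of the 38 members tested, -0.96 (SE 0.479, edgeR adjusted p 0.324). It stood at 1.26, 1.59, 3.11 and 5.62 CPM in WT and at 1.64, 2.09, 0.753 and 1.48 CPM in KO. The WT mean rested on replicates 3 and 4, and the other WT libraries lay within the KO range.

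H3 and H4 form the tetramer at the core of the nucleosome. Of 7 H3 genes tested, 4 were positive and 3 negative, with a median of 0.13 and none at an unadjusted p under 0.05. Hist2h3c2 stood at 2.76, 2.26, 2.87 and 1.97 CPM in WT and at 3.63, 2.47, 2.26 and 2.39 CPM in KO. KO replicate 1 was apart from the rest, which overlapped. Its log2 fold change was 0.13 (SE 0.227, edgeR adjusted p 0.818) and -0.05 without that library. Hist1h3g stood at 1.32, 0.244, 0.608 and 1.35 CPM in WT and at 1.90, 1.12, 1.04 and 0.644 CPM in KO, with overlapping groups and a difference of 0.40 on the log2 scale (SE 0.504, edgeR adjusted p 0.728).

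The H4 genes held values at both ends. Of 9 tested, 5 were positive and 4 negative, with a median of 0.05 and a range of -0.86 to 0.73. Hist1h4h (chr13:23531050-23531519, plus strand) stood at 8.22, 5.71, 12.02 and 6.71 CPM in WT and at 15.0, 13.6, 12.2 and 13.5 CPM in KO. All KO libraries were above all WT libraries, though KO replicate 3 and WT replicate 3 nearly met. The log2 fold change was 0.73 (SE 0.215), with an adjusted p of 0.128 in edgeR and 0.0336 in DESeq2. With library totals it was 0.65 (edgeR adjusted p 0.210), and KO replicate 4 fell below WT replicate 3.

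Hist1h4i (chr13:22040636-22041362, minus strand), the most abundant H4 gene, stood at 17.1, 22.0, 24.5 and 26.6 CPM in WT and at 40.2, 29.1, 28.5 and 26.4 CPM in KO. The groups met at replicate 4 of each, and the log2 fold change was 0.46 (SE 0.172, edgeR adjusted p 0.200). Hist1h4m went the other way, at 0.792, 1.07, 1.08 and 1.14 CPM in WT and 0.642, 0.647, 0.596 and 0.341 CPM in KO. Every KO library was below every WT library, with a difference of -0.86 on the log2 scale (SE 0.291, edgeR adjusted p 0.166). Hist1h4m had only 9 to 49 counts per library. Of its 100-base stretches, 88.1% were shared with other genes, so some of its reads may come from other H4 genes. The H4 genes of the clusters are known to encode the same protein.

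**Figure D4:**
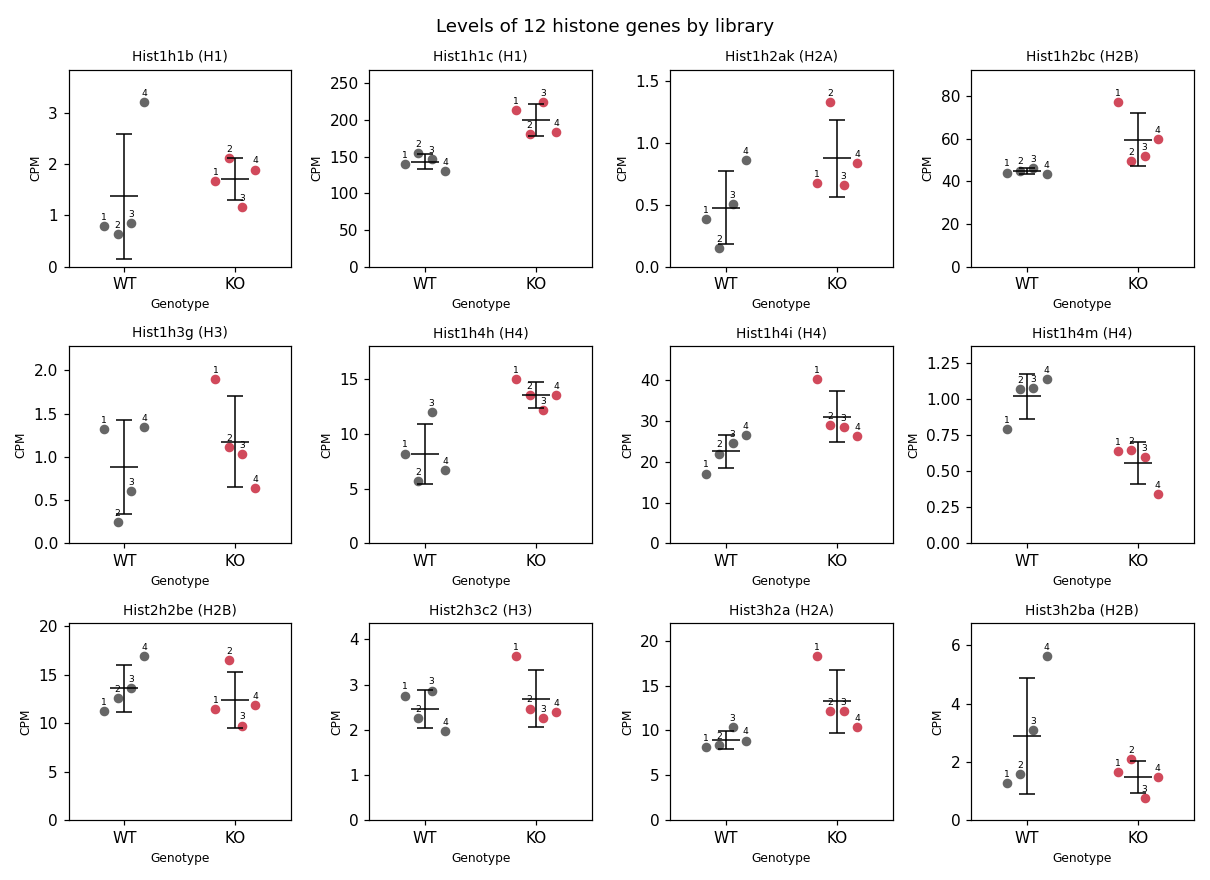
CPM of 12 histone genes in each of the 8 libraries, numbered by replicate, with the mean and SD of each genotype as bars. In these TMM-scaled values, groups do not overlap for Hist1h1c, Hist1h2bc, Hist1h4h (KO above) and Hist1h4m (KO below). WT replicate 4 is apart in Hist1h1b.

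KO lay above WT without overlap in 3 of the 38 genes tested (background 7.33%) and below it in 1 (background 5.78%). With library totals in place of TMM factors, the groups of the 3 genes with KO above WT overlapped. The 26 tested members not described by library had log2 fold changes of -0.82 to 0.78 and edgeR adjusted p values of at least 0.253.

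Summed over all 65 members, the level was 265, 279, 290 and 294 CPM in WT and 422, 349, 375 and 348 CPM in KO. All KO sums were above all WT sums, at 282 ± 13.0 and 373 ± 34.7 CPM (SD, n = 4 each), a ratio of 1.32. This separation rested on the TMM factors, which were 1.18 for WT replicate 4 and 0.831 for KO replicate 4. Of the unscaled library totals, the members took 0.0346% in WT replicate 4 and 0.0289% in KO replicate 4, so the groups overlapped. The log2 ratio was 0.41 with TMM factors and 0.31 with library totals. By type the ratio was 1.39 for H1 and 1.37 for H4, with no overlap between the TMM-scaled groups. It was 1.37 for H2A, 1.19 for H2B and 1.06 for H3, with overlap. A sum does not depend on how counted reads were split among its genes, but an abundant gene can lead it. Without the most abundant gene of each type, the log2 ratio went from 0.48 to 0.20 in H1, from 0.45 to 0.20 in H2A and from 0.25 to -0.05 in H2B. In H3 it went from 0.08 to 0.06 and in H4 from 0.45 to 0.43. With library totals in place of TMM factors, the log2 ratio of H3 was -0.02. No test was made on sums over members.

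The members known to give poly(A) transcripts and the rest were also summed apart. The 5 genes Hist1h1c, Hist1h2bc, Hist2h2be, Hist3h2a and Hist3h2ba summed to 204, 222, 220 and 205 CPM in WT and 322, 261, 298 and 267 CPM in KO. The TMM-scaled groups did not overlap, with a ratio of 1.35. Hist1h1c made up 143 of the 213 CPM of the WT mean, and of the 5 genes 2, Hist2h2be and Hist3h2ba, were highest in WT replicate 4. The other 60 members summed to 60.6, 56.4, 70.3 and 88.7 CPM in WT and 99.9, 88.3, 76.1 and 81.0 CPM in KO. Here WT replicate 4 exceeded all KO libraries but KO replicate 1, and the ratio was 1.25, or 1.38 without it. Much of this sum came from Hist1h4i and Hist1h4h, which both end in a poly(A) signal. They gave 22.6 and 8.16 of the 69.0 CPM of the WT mean. In the KO mean they gave 31.1 and 13.6 of 86.3 CPM, so the ratio does not describe the rarer genes of the set. The 27 members below the filter summed to 2.26, 1.59, 2.19 and 6.81 CPM in WT and 3.12, 4.00, 2.51 and 4.32 CPM in KO, so that WT replicate 4 was 3.38 times the mean of the other WT libraries.

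WT replicate 4 was the highest of the 8 libraries in 19 of the 38 tested members (50%), against 24.1% of all genes tested. Without it, the median log2 fold change of the 38 members tested was 0.43 (all genes 0.00), with 29 positive and 9 negative. In that fit edgeR again called none, and 11 members were higher at an unadjusted p under 0.05 (background 9.37%) and 1 lower (background 7.97%). Leaving out a WT library that is high in these genes raises KO against WT by construction, so this shift does not measure a genotype difference. The same holds for other values given without this library. No member median was computed with another single library left out.

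The same library was high in genes of the cell cycle. The list of 25 DNA replication and S phase genes summed to 839, 909, 1123 and 1814 CPM in WT and 904, 1239, 889 and 719 CPM in KO. WT replicate 4 was the highest library in all 25. All 25 log2 fold changes were negative, with a median of -0.30 that became -0.03 without WT replicate 4. No gene was called by edgeR, DESeq2 or limma-voom and none had an unadjusted p under 0.05. Uhrf1, which recruits DNA methylation after replication, had -0.59 (SE 0.278, edgeR adjusted p 0.295), and the flap endonuclease Fen1 had -0.66 (SE 0.320, edgeR adjusted p 0.311).

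The 25 genes of G2 and mitosis summed to 1295, 1471, 1697 and 2447 CPM in WT and 1645, 1951, 1517 and 1412 CPM in KO. Of them 2 were positive and 23 negative, with a median of -0.38, or -0.05 without WT replicate 4. WT replicate 4 was the highest in 24. At an unadjusted p under 0.05, 1 was higher (background 9.59%) and 2 lower (background 8.59%), and edgeR called none. Ube2c, a ubiquitin-conjugating enzyme of mitotic exit, had 380 ± 59.2 CPM in the WT libraries against 624 ± 49.1 CPM in the KO libraries (SD, n = 4 each). Its adjusted p was 0.0840 in edgeR. Ube2c was the 1 gene of the list called by DESeq2 (adjusted p 0.000251, background 6.48%) and by limma-voom (background 4.04%).

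**Figure D5:**
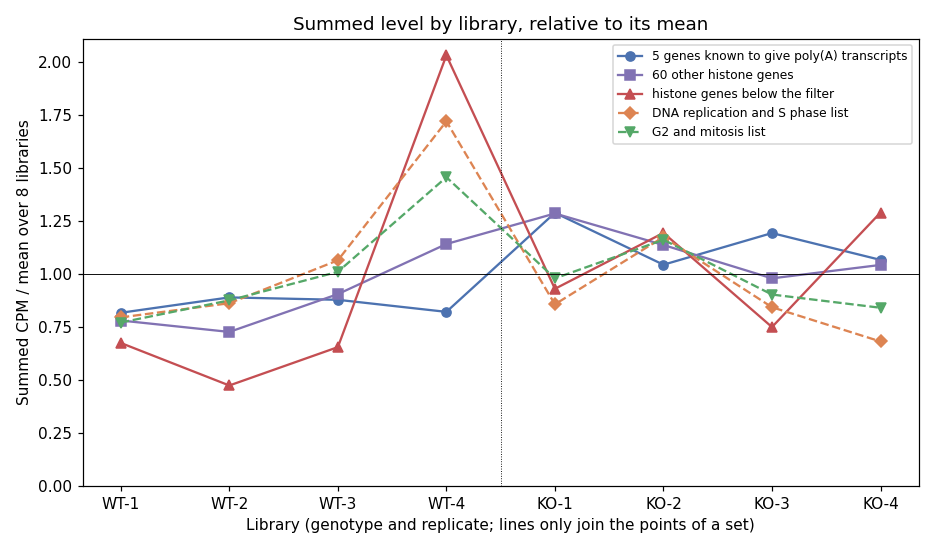
Summed CPM of 3 sets of histone genes and 2 cell cycle lists in each library, divided by the mean of the set over 8 libraries. WT replicate 4 is high in both cell cycle lists and in the histone genes below the filter, and is among the lowest in the sum of the 5 genes known to give poly(A) transcripts, of which Hist1h1c is the largest part.

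Genes that act on histones were read from the same fit. Of 17 genes of histone mRNA 3′ processing and decay, 6 were positive and 11 negative, with a median of -0.06. None was called by edgeR, DESeq2 or limma-voom, and 1 was lower at an unadjusted p under 0.05 (background 8.59%). It was Cstf2, a cleavage stimulation factor. Its level was 21.3 ± 1.96 CPM in the WT libraries against 16.4 ± 2.81 CPM in the KO libraries (SD, n = 4 each). For Zfp473, which encodes the processing factor ZFP100, the log2 fold change was -0.83 (SE 0.373, edgeR adjusted p 0.276).

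Of 17 chaperone and nucleosome assembly genes, 8 were positive and 9 negative, with a median of -0.01. None was called by edgeR or limma-voom. At an unadjusted p under 0.05, 1 was higher (background 9.59%) and 1 lower (background 8.59%). DESeq2 called those 2 (background 6.48%). They were Atrx, a chromatin remodeller that deposits H3.3 with Daxx, at -0.36 (SE 0.109, DESeq2 adjusted p 0.0327), and Rbbp7, a histone-binding subunit of several chromatin complexes, at 0.36 (SE 0.113, DESeq2 adjusted p 0.0370).

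Most replication-independent variants are polyadenylated, and most are made throughout the cycle. Of the 11 genes, 6 were positive and 5 negative, with a median of 0.00. None was called by edgeR, DESeq2 or limma-voom. H2afv, which encodes an H2A.Z form, was the 1 gene at an unadjusted p under 0.05 (background 9.59% higher in KO). It had 59.7 ± 6.88 CPM in the WT libraries against 79.8 ± 15.0 CPM in the KO libraries (SD, n = 4 each). The TMM-scaled groups did not overlap. For H2afy2 the log2 fold change was -0.18 (SE 0.148, edgeR adjusted p 0.573).

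Markers of blood cells, skeletal muscle and bone cells varied widely between libraries, and none was at 0. The 13 erythroid markers in the table summed to 3956 to 12382 CPM in WT and 4697 to 9426 CPM in KO, highest in WT replicate 4. Their median log2 fold change was -0.45, or -0.08 without that library. The 12 neutrophil precursor markers summed to 1607 to 5662 CPM in WT and 819 to 7571 CPM in KO, with all 12 positive and none at an unadjusted p under 0.05. The 12 B cell markers lay at 142 to 214 and 124 to 220 CPM, and the 12 skeletal muscle markers at 68962 to 128864 and 107578 to 181833 CPM, lowest in WT replicate 4. The 12 osteoblast and osteocyte markers lay at 9674 to 22423 and 10550 to 18891 CPM, so the labelled tissue had its defining markers. In every library their sum was below that of the muscle markers. EdgeR and limma-voom called none of these markers. At an unadjusted p under 0.05 in edgeR, 1 erythroid, 3 B cell and 2 osteoblast markers were lower (background 8.59%). By the same measure 2 muscle markers were higher (background 9.59%). Positive fold changes were seen in 3 erythroid, 5 B cell, 9 muscle and 2 osteoblast markers. Negative ones were seen in 10, 7, 3 and 10, in the same order. DESeq2 called Rag1, Tnni2 and Pvalb (background 6.48%), whose edgeR log2 fold changes were -0.80, 0.80 and 0.77. The part of these cells and of library differences in the histone values was not tested.

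Most histone genes are short, and short genes as a class lay higher in KO. The 1410 tested genes with at most 1000 exonic bases had a median log2 fold change of 0.20. The 24 tested members of that length had a median of -0.06. Hist1h1c, Hist1h2bc and Hist3h2a are longer than 1000 bases, and Hist1h4h and Hist1h4i are shorter. With the exon length and GC trend removed, the member median was 0.01 against 0.03 for all genes, with 19 positive and 19 negative. In that fit the log2 fold change was 0.37 for Hist1h1c (edgeR adjusted p 0.233), 0.29 for Hist1h2bc and 0.47 for Hist3h2a. It was 0.58 for Hist1h4h, 0.33 for Hist1h4i and -1.01 for Hist1h4m. The part of length in the histone values was not tested.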

How the data were processed

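The authors deposited unnormalised counts of reads for each Ensembl gene ID. In the submitters' processing notes, bcl2fastq 2.17, STAR 2.5.2b and featureCounts (Subread 1.5.2) were named with build mm10. The sources used here do not state the strand setting, the annotation release or the handling of reads with several matches. Groups and replicate numbers came from the sample titles, and each library was taken as 1 mouse. Of the gene IDs, 49056 matched GENCODE M21 and 259 did not (at most 0.0225% of a library's counts).

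The members and gene lists were chosen with earlier results of these data known. KO was compared with WT by edgeR 4.0.16 in R 4.3.3 (TMM, filterByExpr, robust quasi-likelihood, group only), with Benjamini-Hochberg adjustment over 17450 genes and a threshold of 0.05. The SE given with edgeR fold changes was derived from the test, as the absolute log2 fold change divided by the square root of the F statistic. DESeq2 1.42.0 and limma-voom 3.58.1 with sample quality weights were alternatives. Replicate numbers were not stated to pair the mice, so the main fit held no pairing. Genes given by library were the 2 of each histone type with the highest level per kb, the 4 with the smallest p and those known for poly(A) transcripts; in other lists, the 2 genes with the smallest p. Stem-loops, end signals and shared stretches were searched in GENCODE transcripts, and promoter windows came from RefSeq (GRCm38.p6). The fit was tested on simulated counts.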

Additional observations from a re-analysis of the deposited data

Results flagged for a closer look

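In 56 groups of 4 libraries (12 histone genes, sums and gene lists, in each genotype), the highest or lowest library was checked for a gap to the next that exceeded Dixon's critical value for its share of the group's range. This held in 6. Chance alone gives about 1 in 20 independent groups, but these share their libraries and some sums contain the genes. No excess can therefore be read from the number. Hist1h1b stood at 3.21 CPM in WT replicate 4 and at 0.641 to 0.844 CPM in the other WT libraries. Hist1h4m stood at 0.341 CPM in KO replicate 4 and at 0.596 to 0.647 CPM in the other KO libraries. Hist2h3c2 stood at 3.63 CPM in KO replicate 1 and at 2.26 to 2.47 CPM in the others. The 3′ processing and decay list summed to 804 CPM in WT replicate 4 against 656 to 680 CPM in the other WT libraries. The B cell markers summed to 214 CPM in WT replicate 4 against 142 to 154 CPM, and to 220 CPM in KO replicate 1 against 124 to 137 CPM in the other KO libraries.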

How the results depend on the processing

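Of 202 recomputed fold changes of the 12 histone genes given by library, 195 kept their direction and their side of the threshold. Hist1h1c passed the threshold in DESeq2 and limma-voom, and Hist1h4h in DESeq2. The log2 fold change of Hist2h2be became 0.0095 without both replicates 4 (range over single libraries left out -0.31 to -0.015). That of Hist2h3c2 became -0.0015 in limma-voom, -0.036 with the exon length and GC trend removed, and -0.052 without KO replicate 1 (range -0.052 to 0.21). The cause was not tested.

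The number of histone genes called was 0 in edgeR, 2 in DESeq2 and 1 in limma-voom, and it was 0 whichever single library was left out. Over all genes it was 2 in edgeR, 992 in DESeq2, 705 in limma-voom, 71 with no low-count filter and 458 without both replicates 4; leaving out 1 library gave 2 to 4, the highest without KO replicate 4. With the replicate number as a block, edgeR called 1 gene and no histone gene. Same-numbered libraries did not deviate together (correlations -0.57 to -0.17). These correlations cannot show whether the mice were paired, and the sources used here do not state a pairing. The H1 sum had a log2 ratio of 0.20 without its most abundant gene, which is also its only one known for poly(A) transcripts, and the H2B sum -0.047 without Hist1h2bc. Scaling by library totals moved the median log2 fold change of all genes to -0.11 and that of the members to -0.01, with 19 positive and 19 negative. Counts limit the rare genes: no untested member exceeded 103 counts over the 8 libraries.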
